A study of Mus musculus with 14 samples.

Results

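Synaptic vesicle and exocytosis genes were described in mouse dorsal root ganglia, from 41 genes chosen by symbol. The set held 6 synaptotagmins, 4 SNARE proteins, 4 SNARE regulators and chaperones, 3 synapsins, 6 other vesicle membrane proteins, 4 genes of the Rab3 group, 8 active zone and priming genes, 3 endocytosis genes and 3 other neuronal genes. All 41 were found once in each of 2 tables of gene counts from RNA sequencing, of 56691 Ensembl genes in the first and 20833 gene symbols in the second. The first table held 4 libraries of wild-type mice (WT in the labels) and 4 of 5xFAD mutants (5xFAD-MUTANT). The 5xFAD line, used to model amyloid disease, carries transgenes driven by the Thy1 promoter. The second held 3 libraries with floxed p75 alleles (P75f/f) and 3 labelled as P75f/f knockout, p75 being the neurotrophin receptor encoded by Ngfr. The labels give no age and do not name the recombinase behind the knockout, whose columns are called Adv in the table, a term left unexplained. Whether replicates are separate animals is not said in the labels, and p-values here reflect only how these libraries varied, which may be technical.

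Neurons release transmitters and peptides when calcium triggers the fusion of vesicles with the plasma membrane. SNARE proteins on the vesicle and on the plasma membrane zip together, synaptotagmins sense the calcium, complexins clamp and assist the complex, and the scaffolds of the active zone hold vesicles close to calcium channels until Munc13 proteins prime them. Clathrin adaptors and dynamin then retrieve the membrane. In sensory neurons the transcripts lie in the cell bodies. The proteins serve the central terminals in the spinal cord and the peptide-releasing endings in skin, bone and viscera. Other cells of the ganglion may also make some of these transcripts, and bulk counts do not separate the sources.

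Total counts ran from 13907070 to 19837836 per library in the 5xFAD table and from 4731119 to 6052690 in the p75 table. Levels are given as CPM, counts scaled to a common library total. The labels call the samples sensory neurons, and all 13 pan-neuronal markers were detected in both tables, but their summed level (643 to 1386 CPM in the 5xFAD table) was below that of 7 fibroblast markers (2258 to 5410 CPM) and that of 8 Schwann cell markers (1862 to 5300 CPM). In the p75 table the Schwann cell markers (4839 to 18924 CPM) also exceeded the neuronal ones (300 to 1557 CPM), while the fibroblast markers did so in replicates 1 and 2 but not in replicate 3, with 483 against 879 CPM in the floxed and 367 against 1321 CPM in the knockout library. Libraries stood apart by replicate number in both tables, replicates 1 and 2 from 3 and 4 in the 5xFAD table and replicate 3 from the others in the p75 table, and calls that change with these splits are named. In bulk RNA, fewer cells of a type and less RNA per cell cannot be told apart.

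Vesicle genes of every role were among those that rose in 5xFAD over wild-type ganglia. Of the 41 genes, all of which passed the filter on low counts, edgeR called 20 higher and 0 lower at an adjusted p under 0.05. This is 48.8% of the set, where 2.56% of the 15845 genes tested were called higher and 1.04% lower, 3.6% in either direction. The members were chosen with earlier results of these data known, so such contrasts with all genes are descriptions and not tests. At an unadjusted p under 0.05, 33 members were higher and 0 lower, where 9.29% and 6.93% of all genes were. The median log2 fold change of the 41 was 0.74, against 0.0019 over all genes tested, and 38 lay above 0. The 5xFAD libraries lay above all wild-type libraries in 26 of the 41, and below them in 0, patterns found in 6.44% and 4.59% of all genes tested. The 20 called genes ranged from 0.46 for Vamp2 to 1.59 for Cplx1 on the log2 scale, and 13 of them rose by more than 2-fold. In all 20 every 5xFAD library lay above every wild-type one. A rise in either pair of replicates was largely fixed by this and is no separate test. The median estimate of the 20 was 0.96 from replicates 1 and 2, against 1.26 from replicates 3 and 4. With the split of replicates 1 and 2 from 3 and 4 as a term in the model, edgeR called 30 members higher, the 20 and also Amph, Pclo, Rab3a, Rab3b, Rims1, Sncg, Syp, Syt11, Syt2 and Vamp1, where 7.48% of all genes were called higher. It called 26 members higher in replicates 1 and 2 alone, where 6.38% of all genes were, and 26 in replicates 3 and 4 alone, where 3.51% were, Rims2 and Unc13a being lost in the latter. The summed level of the 41 genes came to 982, 1129, 958 and 975 CPM in the 4 wild-type libraries, in the order of their replicate numbers, and to 1415, 1390, 1345 and 1434 CPM in the 5xFAD libraries.

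**Figure D1:**
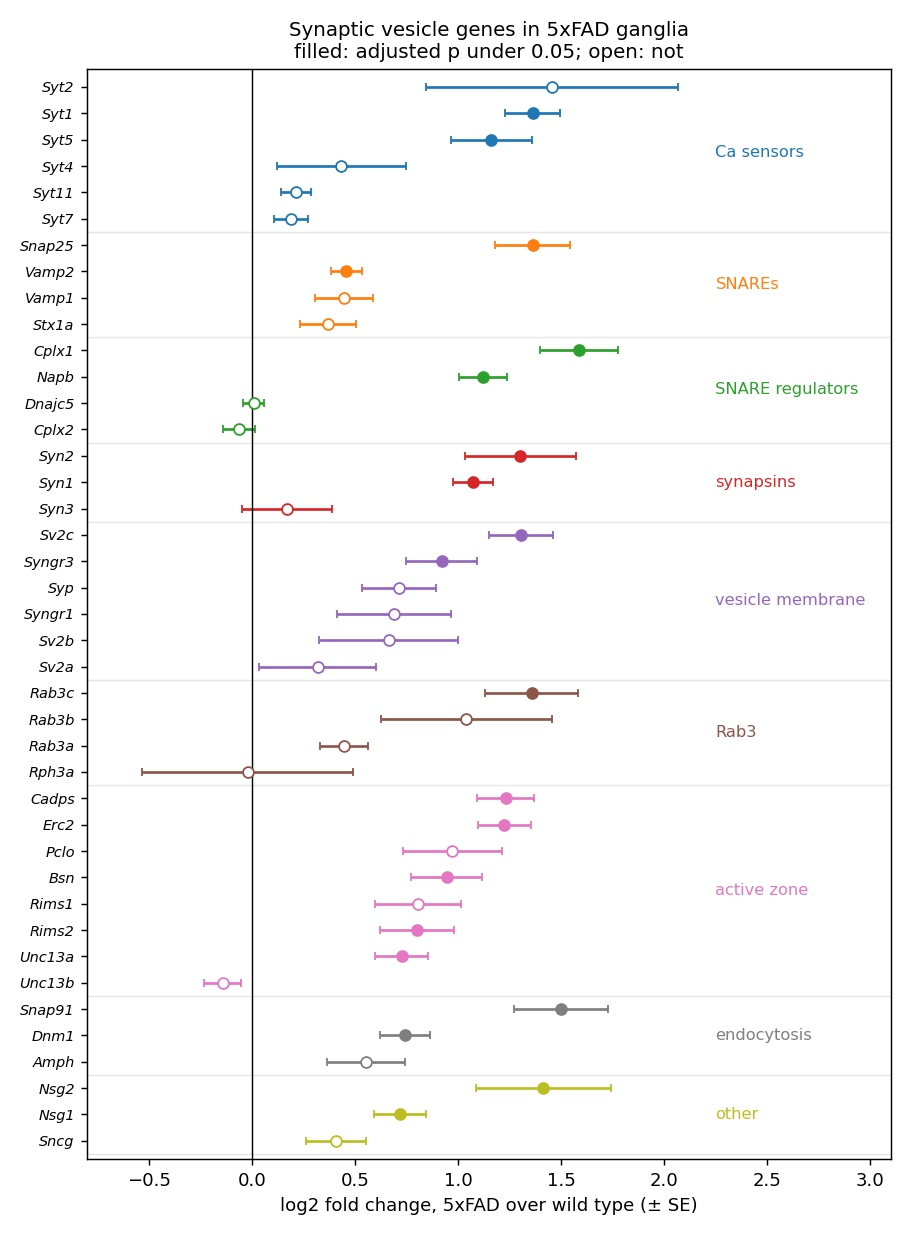
Log2 fold change of each of the 41 genes in 5xFAD over wild-type ganglia (x axis), grouped by role, with bars of 1 standard error and filled points for an edgeR adjusted p under 0.05 (n = 4 libraries per group). The 20 filled points all lie to the right of 0, from 0.46 to 1.59, while Dnajc5, Cplx2, Rph3a and Unc13b sit close to 0.

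Among the synaptotagmins, Syt1 and Syt5 rose and the other 4 did not pass the test without the replicate split. Syt1, the fast calcium sensor of transmitter release, stood at 5.92, 7.52, 6.37 and 6.20 CPM in wild type and at 14.4, 15.2, 18.8 and 18.0 CPM in 5xFAD (replicates 1 to 4 in order, here and in later sentences). The groups were far from touching. On the log2 scale Syt1 rose by 1.36 (standard error, SE, 0.13, adjusted p = 0.000857). Syt5, another calcium-binding isoform, rose by 1.16 (SE 0.20, adjusted p = 0.0103) from 5.44 ± 1.35 CPM to 12.0 ± 2.34 CPM (SD, n = 4). Syt2, a fast sensor related to Syt1, was scarce, at 0.237 to 1.38 CPM in wild type and 0.757 to 3.92 CPM in 5xFAD. Its groups overlapped, and its estimate of 1.46 (SE 0.61) missed the threshold (adjusted p = 0.274), though it was called with the split as a term and in replicates 3 and 4 alone. Syt11, an atypical isoform, stood at 223 ± 15.8 CPM in wild type and 257 ± 14.7 CPM in 5xFAD (SD, n = 4), with an estimate of 0.21 (SE 0.07, adjusted p = 0.179), and was called with the split as a term and in replicates 1 and 2 alone. Syt7, a slow high-affinity sensor, had 0.19 (SE 0.08). Syt4, also atypical, spread widely within the groups, from 73.5 to 184 CPM in wild type and from 122 to 198 CPM in 5xFAD, and replicates 1 and 2 exceeded 3 and 4 in both genotypes. Its estimate was 0.43 (SE 0.31, adjusted p = 0.570), it was called in replicates 3 and 4 alone, and an antisense gene covers 14.5% of its exon bases.

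Of the SNARE proteins, Snap25 and Vamp2 rose. Snap25, the plasma membrane SNARE cleaved by botulinum toxin A, stood at 8.65, 12.7, 8.86 and 7.66 CPM in the wild-type libraries and at 22.0, 18.8, 25.5 and 29.9 CPM in the 5xFAD libraries. Wild-type replicate 2 was the highest of its group and still below every 5xFAD library. The log2 fold change was 1.36 (SE 0.18, adjusted p = 0.00328), and the estimate was 0.95 from replicates 1 and 2 and 1.75 from replicates 3 and 4. Whether these 2 values differ was not tested. Vamp2, the main vesicle SNARE of the brain, rose less, by 0.46 (SE 0.08, adjusted p = 0.00976), from 57.9 ± 4.81 CPM to 79.1 ± 3.81 CPM (SD, n = 4). Its paralog Vamp1 had almost the same estimate, 0.45 (SE 0.14), and did not pass (adjusted p = 0.135), although its 5xFAD libraries, at 15.1 to 20.3 CPM, all lay above the wild-type ones, at 10.2 to 14.5 CPM. It was called with the split as a term. Stx1a, the plasma membrane syntaxin, had 0.37 (SE 0.14, adjusted p = 0.208).

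The SNARE regulators divided into a pair that rose and a pair close to 0. Cplx1, a complexin that binds the assembled SNARE complex, had the largest estimate of the 41 genes. It stood at 5.21, 8.16, 7.20 and 4.99 CPM in the wild-type libraries and at 17.2, 15.4, 20.1 and 23.3 CPM in the 5xFAD libraries. The log2 fold change was 1.59 (SE 0.19, adjusted p = 0.00183). Napb, the neuronal SNAP that helps take SNARE complexes apart, stood at 19.6, 26.8, 17.4 and 19.4 CPM in wild type and at 47.1, 42.8, 43.0 and 46.4 CPM in 5xFAD. It rose by 1.12 (SE 0.12, adjusted p = 0.000895), and neither gene's groups overlapped. The paralog Cplx2 stayed at 34.3 ± 2.66 CPM in wild type and 32.6 ± 1.81 CPM in 5xFAD (SD, n = 4), an estimate of -0.06 (SE 0.08, adjusted p = 0.757). Dnajc5, which encodes the vesicle chaperone cysteine string protein, was at 159 ± 6.81 CPM and 159 ± 6.42 CPM (SD, n = 4), with 0.0077 (SE 0.05, adjusted p = 0.962).

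The synapsins tether vesicles to each other and to actin in the reserve pool. Syn1 had the smallest p of all 41 genes. Its level was 14.6, 15.5, 12.1 and 12.2 CPM in the wild-type libraries and 29.8, 29.0, 28.5 and 26.6 CPM in the 5xFAD libraries. The spread within each group was small beside the step between them, and Syn1 rose by 1.07 (SE 0.10, adjusted p = 0.000665). Syn2 rose by 1.30 (SE 0.27, adjusted p = 0.0269) from 2.20 ± 0.694 CPM to 5.33 ± 1.42 CPM (SD, n = 4). This call was lost in 5 of the 8 fits that left out 1 library (largest adjusted p = 0.0889, without wild-type replicate 1). Syn3 had 0.17 (SE 0.22, adjusted p = 0.767), and 14.1% of its exon bases overlap Timp3 on the opposite strand, whose reads cannot be told apart if the counting ignored strand.

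Promoter sequences from RefSeq (GRCm38.p6, not the build of the counts) were at hand for 31 of the 41 genes, 14 of them among the 20 that rose, as 41 windows of 300 bases that run from 250 before to 50 after an annotated start. They are shown for the genes of this group that hold letters of RE1, the element bound by REST, a repressor of neuronal genes outside neurons. The left arm of RE1, TTCAGCACC on either strand, occurred in 3 of the 41 windows (Syn1, Nsg2 and Unc13a) and in 0.371% of all 32851 windows. The right arm occurred in Unc13a and in 0.521% of all windows. The whole element with its usual spacing, searched without mismatches, was in 0 of the 41 windows and in 0.00304% of all. In Syn1 the letters at that spacing after the left arm match the right arm but for 1 base. An exact search therefore misses this near-complete element, and its right part is left in small letters below. Capitals mark the RE1 arms and, in Syn1, the cyclic AMP response element TGACGTCA, which 1.79% of all windows hold. Each sequence reads 5′ to 3′ along its gene's strand. Syn1 (minus strand) and Nsg2 (plus strand) are the 250 bases before the start at chrX:20920919-20921168 and chr11:32000450-32000699, and Unc13a (minus strand) is a stretch of 27 bases just after the start at chr8:71671727-71671753.
Syn1: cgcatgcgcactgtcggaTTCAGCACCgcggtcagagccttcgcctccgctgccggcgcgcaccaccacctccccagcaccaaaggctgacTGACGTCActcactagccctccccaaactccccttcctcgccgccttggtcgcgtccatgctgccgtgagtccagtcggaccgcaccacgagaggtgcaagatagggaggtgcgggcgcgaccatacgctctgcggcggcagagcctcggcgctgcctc
Nsg2: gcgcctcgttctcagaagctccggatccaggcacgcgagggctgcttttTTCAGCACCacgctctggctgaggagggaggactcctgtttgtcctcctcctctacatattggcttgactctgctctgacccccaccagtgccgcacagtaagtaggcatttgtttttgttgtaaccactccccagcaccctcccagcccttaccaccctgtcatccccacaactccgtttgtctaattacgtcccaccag
Unc13a: GGCGCTGTCCgcgcccccGGTGCTGAA
In Unc13a both arms lie on the reverse strand, at 5 and 23 bases from the start. The GC box, GGGCGG on either strand, was in 25 of the 41 windows (61.0%) and in 35.7% of all, and the TATA box, TATAAA, in 3 (7.32%) and 13.6%. These matches describe the letters, and no factor's binding was measured.

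Of the other vesicle membrane proteins, Sv2c and Syngr3 rose. Sv2c, an SV2 glycoprotein that serves botulinum toxin A as a receptor, stood at 18.4, 26.3, 15.4 and 15.0 CPM in the wild-type libraries and at 43.8, 45.8, 43.3 and 50.6 CPM in the 5xFAD libraries, without overlap. It rose by 1.31 (SE 0.16, adjusted p = 0.00231), by 1.01 within replicates 1 and 2 and by 1.63 within replicates 3 and 4. Syngr3, a synaptogyrin, rose by 0.92 (SE 0.17, adjusted p = 0.0173) from 4.75 ± 0.887 CPM to 8.93 ± 1.26 CPM (SD, n = 4), and lost the call without 5xFAD replicate 4 (adjusted p = 0.0606). Syp, which encodes the vesicle marker synaptophysin, stood at 12.7 to 21.5 CPM in wild type and 23.0 to 31.9 CPM in 5xFAD, with 0.71 (SE 0.18). It missed the threshold (adjusted p = 0.0659) but was called with the split as a term, in both pairs of replicates alone and by DESeq2. Syngr1 missed it too, with 0.69 (SE 0.28), and was called in replicates 3 and 4 alone. An antisense gene covers 16.8% of the exon bases of Syp. Both further SV2 genes were scarce. Sv2b had 0.66 (SE 0.34), with a call in replicates 1 and 2 alone, and Sv2a, the target of the antiepileptic levetiracetam, 0.32 (SE 0.28), which was -0.35 in replicates 1 and 2 alone and 1.02 in replicates 3 and 4 alone.

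Rab3 proteins are the GTPases that ride on vesicles and dock them through RIM and rabphilin. Rab3c was the member of this group that rose, with 6.10, 9.23, 9.08 and 6.30 CPM in the wild-type libraries and 15.5, 14.3, 25.2 and 23.1 CPM in the 5xFAD libraries. Replicates 3 and 4 of 5xFAD were the highest of all, and the groups did not overlap (log2 fold change 1.36, SE 0.23, adjusted p = 0.0108). Rab3b stood at 5.27, 5.65, 11.5 and 10.6 CPM in wild type and at 9.62, 10.6, 23.3 and 24.9 CPM in 5xFAD. Replicates 3 and 4 had about the level of 5xFAD replicates 1 and 2 already in wild type, so that the groups overlapped, and the estimate of 1.04 (SE 0.42) missed the threshold (adjusted p = 0.266). With the split as a term, and in either pair of replicates alone, Rab3b was called. Rab3a, the major brain isoform, had 0.45 (SE 0.12, adjusted p = 0.0688) without overlap, at 11.1 to 13.7 CPM and 14.6 to 19.2 CPM, and was called with the split as a term and by DESeq2. Rph3a, which encodes rabphilin, was at 0.118 to 0.706 CPM in wild type, where the lowest library lay under the 0.178 CPM that 3 counts come to, and at 0.261 to 0.739 CPM in 5xFAD.

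Of the active zone and priming genes, the largest role, 5 of 8 rose, and in 7 of the 8 the groups did not overlap. Erc2, a scaffold of the active zone, stood at 4.50, 5.23, 5.37 and 6.0 CPM in wild type and at 11.9, 12.5, 13.4 and 11.4 CPM in 5xFAD. Both groups were tight, and the log2 fold change was 1.22 (SE 0.13, adjusted p = 0.00111). Cadps, which primes peptide-laden dense-core vesicles, stood at 12.3, 16.3, 10.9 and 10.5 CPM in wild type and at 28.4, 25.4, 30.9 and 31.5 CPM in 5xFAD. It rose by 1.23 (SE 0.14, adjusted p = 0.00145). Bsn, the giant scaffold bassoon, rose by 0.94 (SE 0.17, adjusted p = 0.0139) from 6.19 ± 1.35 CPM to 11.8 ± 1.76 CPM (SD, n = 4). Its relative Pclo, piccolo, had a like estimate of 0.97 (SE 0.24) and missed the threshold (adjusted p = 0.0567), but was called with the split as a term, in both pairs of replicates alone, by DESeq2 and by limma-voom. Both Rim genes, which link vesicles to calcium channels, had estimates of 0.80. Rims2 passed (SE 0.18, adjusted p = 0.0384) while Rims1 did not (SE 0.21, adjusted p = 0.0689). Rims1 was called with the split as a term, with the replicate number as a term and by DESeq2. The call of Rims2 was lost in replicates 3 and 4 alone and in all 8 fits that left out 1 library (largest adjusted p = 0.122, without wild-type replicate 1).

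Unc13a, the Munc13 isoform that primes vesicles at most synapses, stood at 5.69, 5.80, 5.54 and 6.35 CPM in wild type and at 10.5, 9.05, 8.41 and 10.5 CPM in 5xFAD. The lowest 5xFAD library was above the highest wild-type one, and the gene rose by 0.73 (SE 0.13, adjusted p = 0.0122). The call was lost without wild-type replicate 1 (adjusted p = 0.0506), without 5xFAD replicate 4 and in replicates 3 and 4 alone. Unc13b, its more widely expressed paralog, did not pass, with -0.14 (SE 0.09, adjusted p = 0.497) at 29.2 ± 1.35 CPM and 26.4 ± 2.56 CPM (SD, n = 4).

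Of the 3 genes of vesicle retrieval, Snap91 and Dnm1 rose. Snap91, the clathrin assembly protein AP180, stood at 5.45, 10.5, 6.76 and 5.34 CPM in the wild-type libraries and at 17.9, 15.0, 21.8 and 23.5 CPM in the 5xFAD libraries, which did not overlap. It rose by 1.50 (SE 0.23, adjusted p = 0.00698). Dnm1, the neuronal dynamin that pinches vesicles off, rose by 0.74 (SE 0.12, adjusted p = 0.00907) from 8.45 ± 1.01 CPM to 14.0 ± 1.29 CPM (SD, n = 4). Amph, amphiphysin, which brings dynamin to the vesicle neck, had 0.55 (SE 0.19, adjusted p = 0.174), with calls under the split as a term and in both pairs of replicates alone.

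Of the remaining 3 genes, the endosomal proteins Nsg1 and Nsg2, which sort receptors in neurons, both rose. Nsg2 stood at 4.21, 7.44, 1.83 and 3.83 CPM in wild type and at 12.2, 11.8, 8.77 and 12.5 CPM in 5xFAD. Its wild-type libraries spread widely, with replicate 3 lowest, and its call was the weakest of the 20 (log2 fold change 1.41, SE 0.33, adjusted p = 0.0490). It was lost in 6 of the 8 fits that left out 1 library (largest adjusted p = 0.159, without wild-type replicate 1). Nsg1 rose by 0.72 (SE 0.12, adjusted p = 0.0116) from 27.3 ± 4.78 CPM to 44.8 ± 3.15 CPM (SD, n = 4). Its call was lost without wild-type replicate 1 (adjusted p = 0.0506), and 17.9% of its exon bases overlap Stx18 on the opposite strand. Sncg, gamma-synuclein, an abundant protein of sensory neurons, stood at 76.4, 111, 76.9 and 73.7 CPM in wild type and at 123, 129, 92.4 and 101 CPM in 5xFAD. Wild-type replicate 2 lay above 2 of the 5xFAD libraries, and the estimate of 0.41 (SE 0.15) did not pass (adjusted p = 0.200), though Sncg was called with the split as a term and in replicates 3 and 4 alone.

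**Figure D2:**
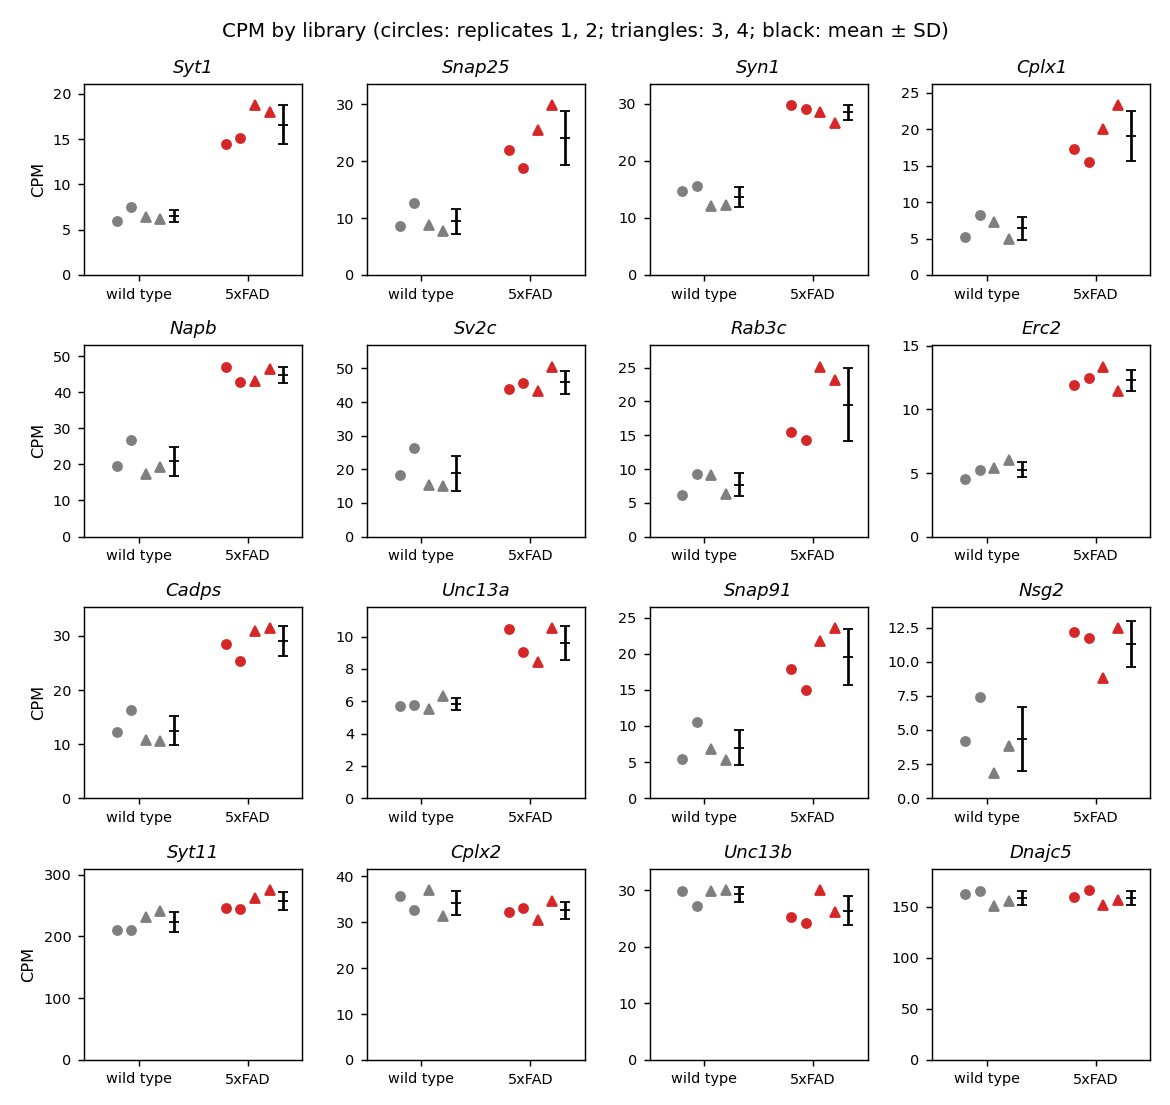
CPM (y axis) of 16 vesicle genes in each wild-type and 5xFAD library, with circles for replicates 1 and 2, triangles for replicates 3 and 4, and the mean with 1 SD in black (n = 4 per group). In the upper 3 rows of panels every 5xFAD library lies above every wild-type one, as for Syn1 at 26.6 to 29.8 against 12.1 to 15.5 CPM, while Cplx2, Unc13b and Dnajc5 in the bottom row overlap.

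Levels were also set against annotated exon length, to compare the genes with each other. Per kilobase, Sncg was the most abundant in wild type, at 99.3 ± 21.0 CPM per kb (SD, n = 4), followed by Syt11 at 42.9 ± 3.03, Syt4 at 30.6 ± 13.2, Dnajc5 at 22.8 ± 0.979 and Vamp2 at 15.2 ± 1.26. Syt4 and both of its neighbours in this order, Syt11 and Dnajc5, lay within its spread. Snap25 reached 1.39 ± 0.324 CPM per kb and Syt1 0.780 ± 0.0840, close to Snap91 at 0.769 ± 0.265. The lowest were Rph3a at 0.115 ± 0.0599 and Syt2 at 0.106 ± 0.0616, which did not differ beyond their spread. Of the 5 most abundant genes, Vamp2 was called in 5xFAD and the other 4 were not.

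Relatives within a family differed in their ratios between genotypes. These pairs were chosen after their values were seen and are given without a test. Which cells of the ganglion each relative came from was not tested. The log2 ratio of Cplx1 to Cplx2 counts was -2.78, -2.01, -2.37 and -2.65 in the wild-type libraries and -0.90, -1.10, -0.60 and -0.58 in the 5xFAD libraries. Cplx2 gave the more counts in all 8 libraries, by a smaller margin in 5xFAD. The ratio of Unc13a to Unc13b had a mean of -2.32 ± 0.10 in wild type and -1.46 ± 0.26 in 5xFAD (SD, n = 4). For Syt1 over Syt11 the means were -5.10 ± 0.21 and -3.96 ± 0.12, and for Syn1 over Syn3 they were 2.13 ± 0.45 and 2.99 ± 0.16. For Sv2c over Sv2a the means were 3.41 ± 0.27 and 4.40 ± 0.28, and for Rab3c over Rab3a -0.67 ± 0.23 and 0.23 ± 0.50. In all of these pairs the ratios of the groups did not overlap. The ratio of Vamp2 to Vamp1, in contrast, was 2.16 ± 0.17 in wild type and 2.17 ± 0.17 in 5xFAD, and the ratios of Nsg2 to Nsg1 overlapped.

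**Figure D3:**
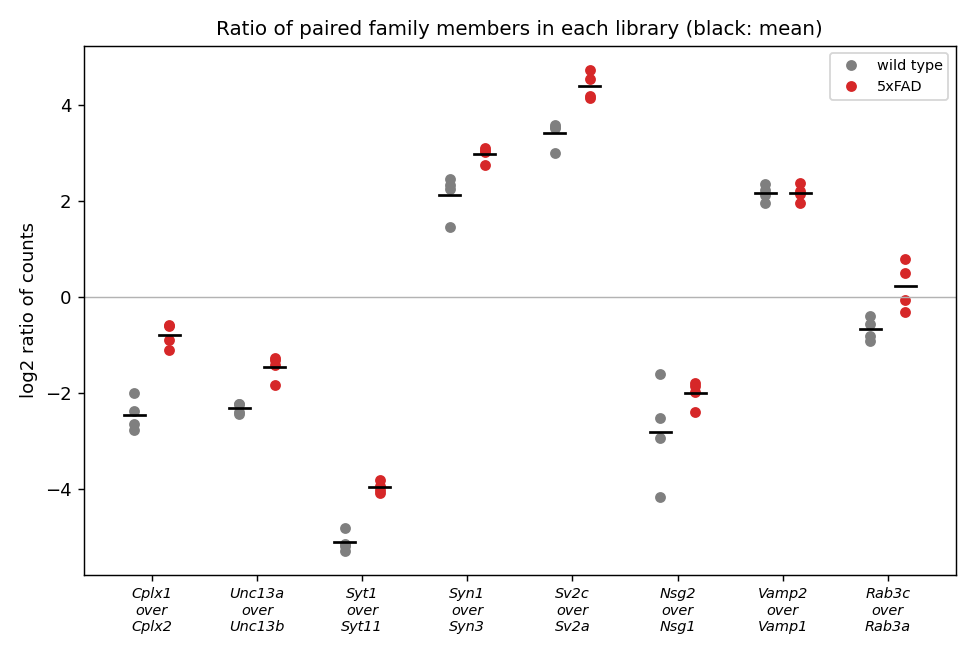
Log2 ratio of the counts of paired family members (y axis) in each wild-type (grey) and 5xFAD (red) library, with the group mean as a black line. The red points lie above all grey points for 6 of the 8 pairs, and the points of Vamp2 over Vamp1 coincide at means of 2.16 and 2.17.

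Pan-neuronal markers moved with the vesicle genes. Of 13 such markers, 10 were called higher in 5xFAD and 0 lower, with a median log2 fold change of 1.33. Their summed level was 643 to 857 CPM in wild type, highest in replicate 2, and 1245 to 1386 CPM in 5xFAD. Wild-type replicate 2 was also the highest wild-type library for 19 of the 41 vesicle genes, and the like share of all genes was not computed. The 8 Schwann cell markers had a median of 0.72 with 0 called, at summed levels of 1862 to 3748 CPM and 3712 to 5300 CPM. The share of these markers in the vesicle gene result was not tested. Markers of spinal cord tissue summed to 2.37 to 5.09 CPM in wild type and 2.97 to 4.81 CPM in 5xFAD, and Gad1, Slc32a1, Chat, Mnx1 and Mog were at 0 counts in all 8 libraries. Of the neuroendocrine markers, the granins Chga and Chgb were called higher, which sensory neurons also make, while Th and Dbh reached at most 0.575 CPM and Pnmt was at 0. Satellite glia had a median of 0.20 with 1 of 7 called, Gja1, which fell. Fibroblast, endothelial and macrophage markers had medians of -0.06, -0.40 and -0.49 with 0 called. The fibroblast median was -1.53 in replicates 1 and 2 and 0.11 in replicates 3 and 4, with Dcn at -3.01 and -0.04, and the macrophage median was -1.27 and -0.18. The neuronal median was 0.90 in replicates 1 and 2 and 1.60 in replicates 3 and 4. Skeletal muscle and red blood cell markers summed to at most 1.36 and 7.01 CPM.

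**Figure D4:**
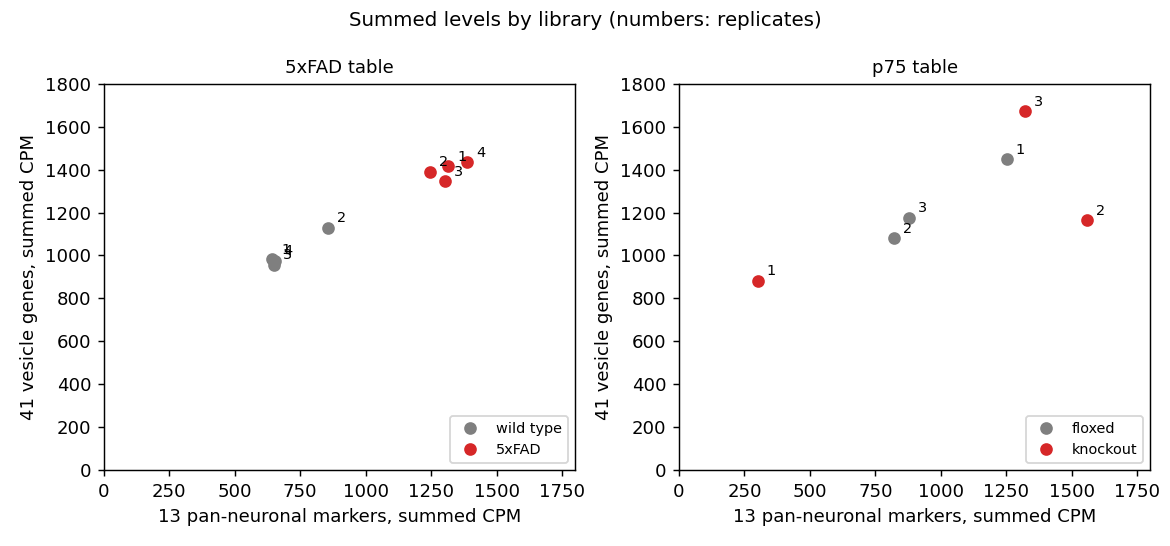
Summed CPM of the 41 vesicle genes (y axis) against the summed CPM of 13 pan-neuronal markers (x axis) in each library, numbered by replicate, for the 5xFAD table (left) and the p75 table (right). On the left the 4 wild-type libraries lie at 958 to 1129 CPM on the y axis and the 5xFAD libraries at 1345 to 1434 CPM, while on the right the groups are mixed and knockout replicate 1 is lowest on both axes, at 882 and 300 CPM.

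A wider list of 121 further genes of exocytosis and vesicle recycling was read the same way. Of these, 97 were tested in 5xFAD, and the median was 0.12. Of the 97, 14 were called higher and 1 lower, where 2.56% and 1.04% of all genes tested were. Slc17a6, the vesicular glutamate transporter of most sensory neurons, rose by 1.64 (SE 0.17). Ppfia2, a liprin of the active zone, rose by 1.58 (SE 0.19), the synaptotagmin Syt9 by 1.29 (SE 0.16), Unc13c by 1.65 (SE 0.21) and Cacna1b, the N-type calcium channel of the terminal, by 1.29 (SE 0.17). The gene that fell was Slc17a8, the glutamate transporter of C-fibre touch neurons, at 18.1, 20.3, 15.2 and 11.4 CPM in wild type and 5.08, 6.54, 5.25 and 3.75 CPM in 5xFAD. Its estimate was -1.64 (SE 0.21, adjusted p = 0.00234). It therefore moved against the vesicle genes in the same libraries. Leaving out 1 library lowered the count of calls on this list to between 7 and 13, with the lowest without wild-type replicate 1.

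The p75 table compared ganglia with floxed and with deleted p75 alleles. Ngfr itself stood at 135, 130 and 87.7 CPM in floxed replicates 1 to 3 and at 22.5, 24.1 and 35.9 CPM in knockout replicates 1 to 3. The libraries labelled as knockout were thus all lower, though not at 0 (log2 fold change -2.02, SE 0.35, unadjusted p = 0.000411 and adjusted p = 0.9999 in edgeR). DESeq2 and edgeR on replicates 1 and 2 alone called Ngfr lower.

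No vesicle gene was called in the p75 table. Of the 41 genes, 37 passed the filter on low counts, and edgeR called 0 of them in either direction, as it called 0% of all 11890 genes tested. At an unadjusted p under 0.05, 0 members were higher and 1 lower, where 0.454% and 0.723% of all genes were. DESeq2, limma-voom and the replicate block also called 0 members. The median log2 fold change of the 37 was 0.0098, against 0.016 over all genes, with 19 above 0 and 18 below. The standard errors had a median of 0.80, against 0.17 in the 5xFAD table, so that the largest estimate seen in 5xFAD, 1.59, comes to about 2 of these standard errors. They are from the fit without a replicate term. With the replicate block the SE was smaller for some members (Rab3c 0.35, from 0.98) and larger for others (Bsn 1.77, from 1.34). The summed level of the 41 genes was 1448, 1081 and 1175 CPM with floxed alleles and 882, 1163 and 1673 CPM in knockouts, which enclose the floxed values.

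**Figure D5:**
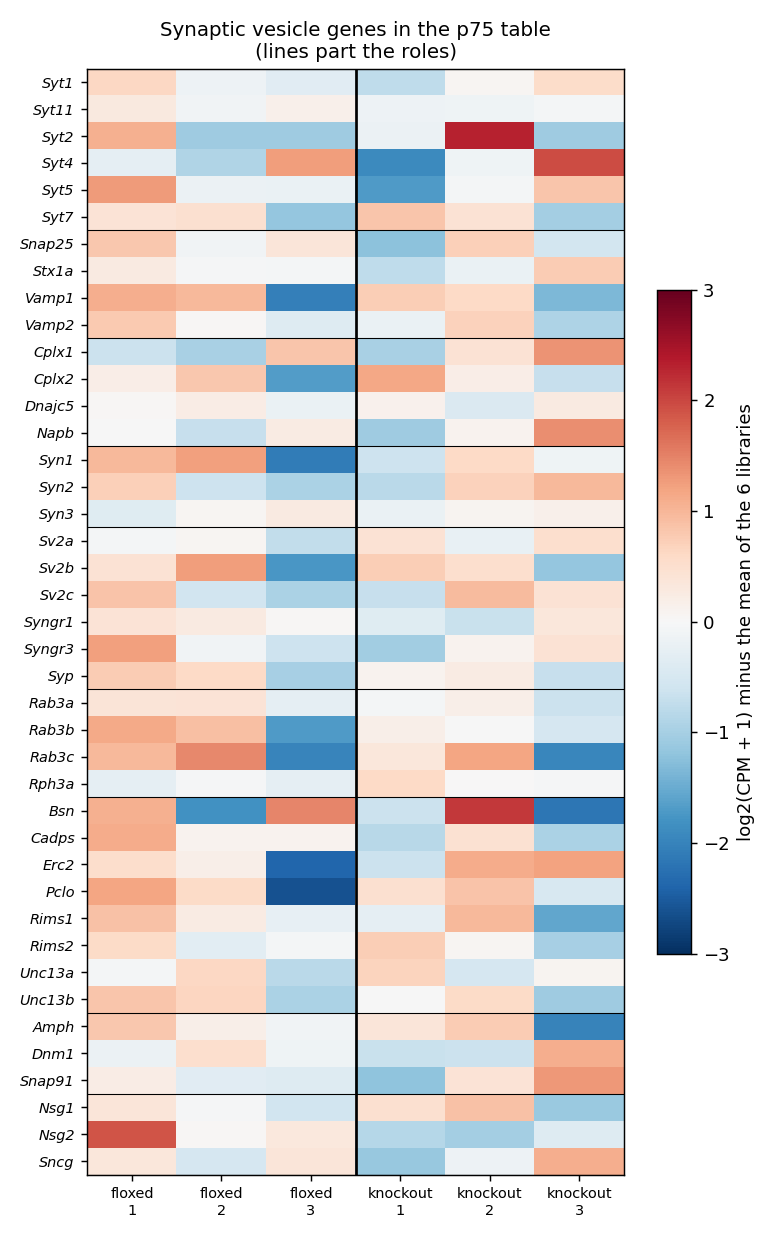
Level of each of the 41 genes in the 6 libraries of the p75 table, as log2(CPM + 1) minus the gene's mean over the libraries (colour), with genes grouped by role. No gene but Nsg2 parts the genotypes without overlap, and replicate 3 stands apart for many, as for Rab3c at 3.30 CPM in floxed replicate 3 and 3.35 CPM in knockout replicate 3 against 20.6 to 45.2 CPM in the other libraries.

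Nsg2 was the member with the smallest p. It stood at 11.2, 2.40 and 3.14 CPM with floxed alleles and at 0.833, 0.634 and 1.51 CPM in knockouts, on 57, 13 and 19 counts against 4, 3 and 9. All 3 knockout libraries lay below the floxed ones, as in 3.92% of all genes, and no member lay wholly above them, as 2.18% of all genes did. The log2 fold change was -2.36 (SE 0.88, unadjusted p = 0.0277 and adjusted p = 0.9999 in edgeR), with a range of -2.83 to -1.42 when each library in turn was left out, the smallest size being without floxed replicate 1.

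In each of the other roles the member with the smallest p had groups that overlapped. Syt11, with the smallest SE of the members tested, stood at 274, 209 and 247 CPM with floxed alleles and 201, 205 and 214 CPM in knockouts (log2 fold change -0.18, SE 0.30). Snap25 stood at 17.6, 9.04 and 12.7 CPM and at 3.54, 16.7 and 6.37 CPM, with -0.50 (SE 0.65). Napb stood at 17.2, 10.3 and 20.8 CPM and at 7.71, 18.6 and 47.3 CPM. Its estimate of 0.67 (SE 0.67) rested on knockout replicate 3, without which it was -0.26. Cadps had -0.92 (SE 0.73), Syn2 0.88 (SE 1.0), Snap91 0.86 (SE 0.86), Rab3b -0.56 (SE 0.63) and Syngr1 -0.36 (SE 0.40). Syt1 had 0.0098 (SE 0.53), and -0.54 in replicates 1 and 2 alone, at 19.6, 11.1 and 9.58 CPM in floxed and 6.87, 12.9 and 18.4 CPM in knockout libraries.

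The 4 members that did not pass the filter were Syt2, Sv2a, Rph3a and Dnm1. Syt2 was at 0 counts in floxed replicates 2 and 3 and in knockout replicate 3, where 3 counts would be 0.553, 0.496 and 0.503 CPM, yet reached 9.30 CPM in knockout replicate 2. Sv2a stayed at or below 1.34 CPM, Rph3a at or below 0.833 CPM and Dnm1 at or below 5.20 CPM.

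The libraries numbered 3 carried much of the spread. In 15 of the 41 genes replicate 3 lay below replicates 1 and 2 in both genotypes, and in 5 (Syt4, Syn3, Cplx1, Sncg and Napb) above them in both. In 10 others, Syt1, Syn2 and Snap91 among them, it lay below both in the floxed group and above both in the knockouts. The shares of all genes with these patterns were not computed, and replicate 3 stood apart well beyond the vesicle genes. Of all genes with enough counts to compare, 75.3 to 76.5% differed beyond counting noise between replicate 3 and the others of its group. Between replicates 1 and 2 it was 46.9% (floxed) and 52.4% (knockout). Of the 15 genes, Pclo stood at 26.4, 17.0 and 0.991 CPM with floxed alleles and at 16.0, 21.1 and 7.72 CPM in knockouts. Vamp1, also of the 15, stood at 13.5, 12.4 and 0.661 CPM and at 10.4, 9.30 and 1.68 CPM. Syt4 went the other way, at 69.9, 44.1 and 200 CPM and at 21.7, 76.9 and 329 CPM. In replicates 1 and 2 alone 0 of 38 members tested were called and 3 had an unadjusted p under 0.05, all lower, where 3.18% of all genes were lower and 3.02% higher at that p. The summed pan-neuronal markers were 1252, 820 and 879 CPM with floxed alleles and 300, 1557 and 1321 CPM in knockouts. Knockout replicate 1, the lowest in these markers, was the lowest knockout library for 17 of the 41 vesicle genes, and knockout replicate 3 for 19. The like shares of all genes were not computed. None of the other marker lists (Schwann cell, satellite glia, fibroblast, endothelium, macrophage, spinal cord, muscle, neuroendocrine and red blood cell) had a gene called. The part of neuronal content and of the replicate 3 libraries in these values was not tested.

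The wider exocytosis list had 78 genes tested and 0 called in the p75 table (0 higher and 2 lower at an unadjusted p under 0.05, and 0 called by DESeq2 or limma-voom), with a median of -0.06. The smallest p belonged to Synpr, the vesicle protein synaptoporin, at 3.92, 2.03 and 1.98 CPM with floxed alleles and 0, 0.423 and 0.168 CPM in knockouts, all 3 of which lie under the level of 3 counts (0.625, 0.634 and 0.503 CPM). Stxbp6, the SNARE-binding amisyn, had -1.90 (SE 0.79) with overlapping groups. Vamp3, the vesicle SNARE of non-neuronal recycling endosomes, stood at 55.1, 51.3 and 55.2 CPM with floxed alleles and at 23.7, 36.4 and 33.5 CPM in knockouts, without overlap. Its log2 fold change of -0.72 (SE 0.32) did not pass (unadjusted p = 0.0559).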

How the data were processed

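The authors deposited 2 tables of raw gene counts from RNA sequencing of dorsal root ganglia, 1 per mouse model. The genome build was GRCm39, per the submitters' processing notes; the aligner, the counting tool and its strand setting were not given in the sources used here. In the p75 table, knockout columns were matched to samples by their number and by elimination. Levels were computed as CPM, counts scaled to each library's total. Each whole table was tested separately with edgeR 4.0.16 in R 4.3.3 (filterByExpr, TMM scaling, robust quasi-likelihood test, Benjamini-Hochberg adjustment over all genes, threshold 0.05), without a replicate term, and the code was tested on simulated data. Alternatives used DESeq2 1.42.0 and limma 3.58.1 (voom), other scalings and filters, single libraries left out, the splits by replicate and a replicate block. Same-numbered p75 libraries deviated together from their group means across genes, with correlations of 0.344, 0.310 and 0.581, each above the limit of 0.1. Floxed replicate 1 with knockout replicate 2 (0.375) and floxed replicate 2 with knockout replicate 1 (0.445) exceeded the first 2 of these. The numbers thus set replicate 3 apart but do not settle how replicates 1 and 2 pair. No 2 replicates agreed within counting noise. Members named in the text follow their roles, and in the p75 table those with the smallest p of each role; further examples were chosen after their values were seen. The members and lists were chosen with earlier results of these data known. Floors of 3 counts (0.151 to 0.634 CPM) cover counting error only. A gene of the wider list that the naming rule would include is not reported here.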

Additional observations from a re-analysis of the deposited data

Results flagged for a closer look

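Of 82 groups of 4 libraries examined in the 5xFAD table (41 genes in 2 genotypes), 5 held a library whose gap to the nearest other exceeded Dixon's 95% limit, which chance passes in about 1 of 20 groups. Sncg stood at 111 CPM in wild-type replicate 2 while the other wild-type libraries lay between 73.7 and 76.9 CPM. Rims2 stood at 8.26 CPM in 5xFAD replicate 2 and at 5.35 to 5.73 CPM in the others. It lost its call without that library, as without each of the other 7. Syn3 stood at 3.92 CPM in 5xFAD replicate 4 and at 3.45 to 3.52 CPM in the others. Unc13b stood at 27.2 CPM in wild-type replicate 2, where the others lay at 29.9 CPM. Rph3a stood at 0.118 CPM in wild-type replicate 1, under the level of 3 counts, and at 0.644 to 0.706 CPM in the others.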

How the results depend on the processing

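The count of 20 vesicle genes called in 5xFAD was 15 to 21 when each library in turn was left out (15 without wild-type replicate 1, 16 without 5xFAD replicate 4), 24 with DESeq2, 21 with limma-voom and 30 with the split as a term. It was 19 with DESeq2 size factors, losing Nsg2. A filter at a mean of 5 CPM left 33 members and 17 calls, losing Nsg2, Rims2 and Syn2. Without a filter the count stayed at 20, gaining Pclo and losing Nsg2. With a replicate block it was 31, gaining Syngr1 beside those of the split. The numbers do not pair the 5xFAD libraries by the limit used (correlations 0.118, 0.288, 0.389 and 0.0676), and not every library correlated best with its own number. Over all genes the 570 calls became 1028 with DESeq2, 1622 with the block, 1866 with the split of replicates 1 and 2 from 3 and 4 as a term, 2053 in replicates 1 and 2 alone and 237 to 516 without 1 library. The wider list's 15 calls became 26 with the split and 7 to 13 without 1 library. Of the 26, 24 were higher, where 7.48% of all genes were called higher with the split. In the p75 table, 0 genes called became 6 with DESeq2, 6 in replicates 1 and 2 alone, 1 with the replicate block and 1 with replicate 3 as a term, and stayed at 0 without any 1 library; the block changed no vesicle gene's call. Signs turned for genes that were not called: Sv2a (-0.35) and Dnajc5 (-0.0078) in replicates 1 and 2 alone, Rph3a with limma-voom (0.13), the block (0.050) and the split (0.034), and p75 Snap91 in replicates 1 and 2 alone (-0.10, from 0.86). Of the 37 p75 members, 9 turned sign in replicates 1 and 2 alone and 7 with the block. Without 1 library, Rph3a ranged from -0.35 to 0.22, Dnajc5 from -0.019 to 0.024 and p75 Napb from -0.26 to 1.10. The cause was not tested. Depth limits the scarce genes most: with p75 libraries a level of 3 counts is 0.496 to 0.634 CPM, and Syt2, Sv2a, Rph3a and Dnm1 did not pass the filter; without it all 41 were tested and 0 called.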
